A study of Komagataella phaffii with 72 samples.

Results

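The 100 genes described here were the steadiest expressed genes across *Komagataella phaffii* (*Pichia pastoris*) cultures, that is, candidates for reference genes. They were chosen by their level and spread on the deposited log2(TPM + 1) scale, where TPM expresses each transcript as a length-corrected share of its library. Library X-33 rhGH 12A and the 3 transgenes were set aside, genes were ranked by their mean over the other 71 libraries, the 100 highest genes and the 2484 genes with a mean under 5 were removed, and the 100 genes with the smallest standard deviation (SD) were taken from the remaining 2536. The choice covers 100 of the 5120 genes in the tables. Because the small SD chose these genes, it is given as a description without a test, and steadiness is otherwise read in libraries that a choice did not use.

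The RNA-Seq data comprised 72 libraries from 4 strains (X-33, Y-48124, GS115, and Y-11430), each secreting rhGH (human growth hormone) or rhG-CSF (human granulocyte colony-stimulating factor). Each strain and product was represented by 3 clones, with 3 cultures (A to C) per clone, so the 24 clones are the independent samples. The clones of a strain were selected to range from low to high transgene copy number, so the SD between clones includes that difference, and copy number was not analysed here. All strains carried the transgene in the pPICZ A vector under the methanol-induced AOX1 promoter, and all were sampled after 24 hr with 4% glycerol followed by 24 hr with 1.5% methanol. GS115 is a histidine auxotroph made from Y-11430 by chemical mutagenesis, and X-33 and Y-48124 belong to the GS115 lineage. Every library therefore came from a transformed clone at a single time in methanol, and other media, times, and untransformed strains were not analysed here.

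Reference genes are transcripts whose level is taken as constant so that other transcripts can be measured against them, as in quantitative PCR. Genes with basic tasks in every cell are commonly used for this, and their steadiness has to be checked in the strains and media of interest. A steady share of the transcripts of a library is not a steady number of molecules per cell, since the share also depends on all other transcripts. The genes here carry GQ67 identifiers (0 of 5120 found in the gene table of the species). None of the 100 is paired with a name in the sources used here, so no roles are given.

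Total counts were 386665 to 33003281 per library. The highest total belonged to GS115 rhG-CSF 14A, and the next highest was 5996828. The 3 cultures of GS115 rhG-CSF clone 14 stood apart from the 15 other GS115 libraries. Their median over the 2536 genes was 6.35 to 6.60 on the log2(TPM + 1) scale against 6.66 to 6.85, and the other 3 strains were at 6.16 to 6.54. Results that rest on this clone are given with and without it. The set-aside library X-33 rhGH 12A lay nearer to the mean of Y-11430 rhGH than to that of its labelled group, with a median distance over the 2536 genes of 0.22 against 0.27.

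The 100 genes had an SD of 0.180 to 0.261 over 71 libraries, with a median of 0.234. The other 2436 genes had a median SD of 0.548, and the 100 highest genes, which were not eligible, had a median SD of 0.684. Of those 100 highest genes, 4 had an SD no larger than the largest among the chosen genes, as did 11 genes with a mean under 5. The range between the lowest and the highest library was 0.83 to 1.49 for the chosen genes, with a median of 1.09. Even a typical chosen gene therefore had libraries that differed by about 1 log2 unit. The limit of the choice did not fall in a gap. The 2 genes just inside, GQ67_04042 and GQ67_03794, had SDs of 0.26035 and 0.26126, and the 2 just outside, GQ67_04537 and GQ67_04144, had SDs of 0.26187 and 0.26246.

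**Figure D1:**
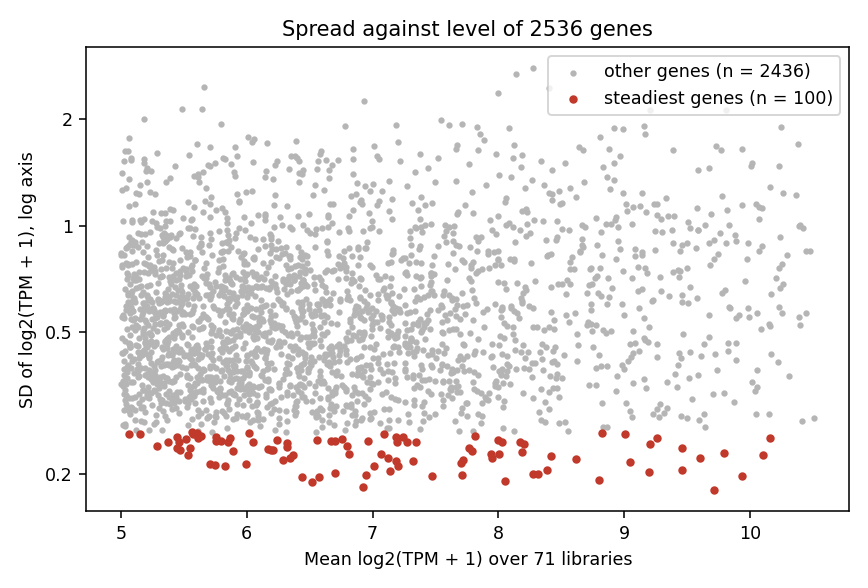
Mean log2(TPM + 1) (x axis) and SD of log2(TPM + 1) over 71 libraries (y axis, log scale) for 2536 genes, with the 100 steadiest genes in red. The red points lie at SDs of 0.180 to 0.261 and at means from 5.07 to 10.16.

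The chosen genes had means from 5.07 for GQ67_05320 to 10.16 for GQ67_00130, where the other eligible genes had 5.001 to 10.51, with a median of 6.96 against 6.39 for the other genes. When the 2536 genes were ordered by level and divided into 5 bins of equal size, the bins held 8, 20, 18, 25, and 29 of the chosen genes from the lowest to the highest level. Their median count per library was 223 against 135 for the other genes, and none had a count of 0 in any of the 71 libraries, as 18 of the other genes did. The error expected from counting alone had a median SD of 0.106 for the chosen genes and 0.136 for the other genes. The variance of the chosen genes was 1.92 to 33.3 times the counting variance (median 4.82) against a median of 14.8 for the other genes.

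The steadiest gene was GQ67_04270, with a mean of 9.72 and an SD of 0.180. In rhGH strains, its lowest, median, and highest libraries were at 9.63, 9.82, and 10.16 in Y-11430, at 9.29, 9.63, and 9.71 in GS115, at 9.59, 9.79, and 9.95 in Y-48124, and at 9.54, 9.72, and 9.90 in X-33. In rhG-CSF strains, they were at 9.44, 9.64, and 9.95 in Y-11430, at 9.27, 9.51, and 9.81 in GS115, at 9.62, 9.84, and 9.95 in Y-48124, and at 9.58, 9.86, and 9.95 in X-33. On this scale the ranges of all 8 groups overlapped, and the GS115 medians were the lowest within each product. With TMM scaling, which sets the bulk of genes in each library level, GQ67_04270 was lower in GS115. Its clone means there were 8.28 ± 0.08 with rhGH and 8.37 ± 0.29 with rhG-CSF (SD, n = 3 clones). The other groups were at 8.75 to 9.01. Its SD over libraries was 0.300 with TMM, above the largest SD of 0.248 in the list chosen on that scale.

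The second steadiest gene, GQ67_00249, had a mean of 6.92 and an SD of 0.184. Its group means were between 6.85 ± 0.27 (SD, n = 3 clones) in GS115 rhG-CSF and 7.02 ± 0.03 (SD, n = 3 clones) in X-33 rhG-CSF, and the SD between its 8 group means, 0.0577, was the smallest of the 100. Its lowest library was GS115 rhG-CSF 14A at 6.41 and its highest was Y-11430 rhG-CSF 12A at 7.45. Clones varied most in the rhG-CSF groups of Y-11430 (SD 0.28) and GS115 (SD 0.27), by more than the group means differed. With TMM the group means of GQ67_00249 were 7.85 and 7.94 in GS115 with rhGH and rhG-CSF, and 8.23 to 8.38 in the other groups.

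GQ67_00276 (mean 6.52, SD 0.189) had group means from 6.38 ± 0.02 (SD, n = 3 clones) in Y-48124 rhG-CSF to 6.72 ± 0.10 (SD, n = 3 clones) in GS115 rhGH. GQ67_02748 (mean 8.05, SD 0.190) had group means from 7.87 ± 0.12 in X-33 rhGH to 8.21 ± 0.14 in Y-11430 rhGH (SD, n = 3 clones). GQ67_03160 (mean 8.80, SD 0.192) had group means from 8.57 ± 0.18 in GS115 rhG-CSF to 8.94 ± 0.16 in Y-48124 rhG-CSF (SD, n = 3 clones). For each of these 3 genes the highest and the lowest group means were further apart than the SD between clones of either group. The libraries of those groups overlapped for all 3 genes. With TMM, GQ67_03160 was at 8.38 and 8.39 in GS115 with rhGH and rhG-CSF, and at 8.69 to 9.08 in the other groups. GQ67_02748 was at 7.16 and 7.15 in GS115 with TMM, and at 7.41 to 7.63 in the other groups. GQ67_00276 was at 6.98 and 7.03 in GS115 with TMM, where the other groups, at 7.00 to 7.27, overlapped it.

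**Figure D2:**
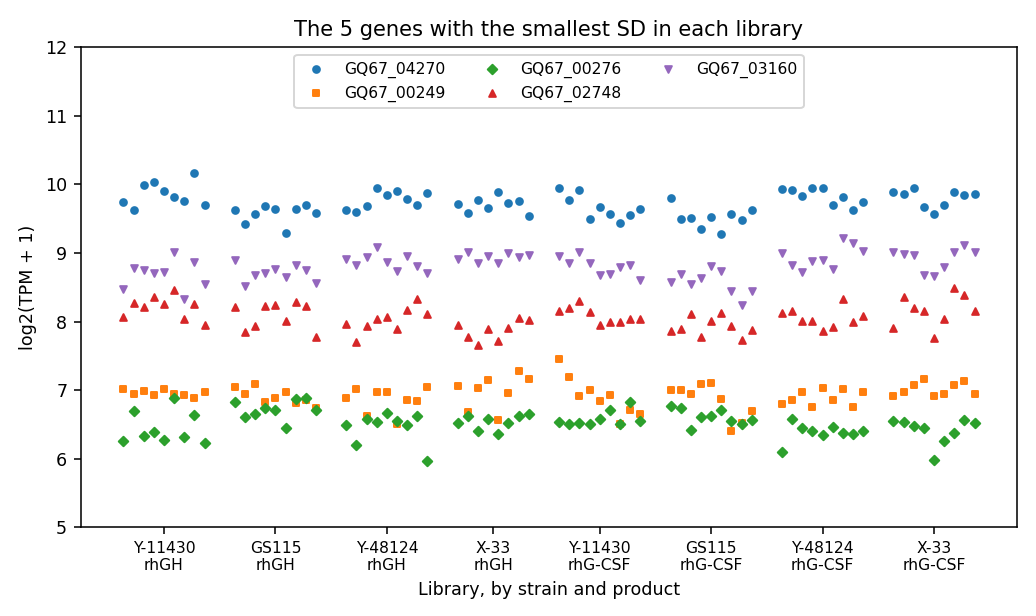
log2(TPM + 1) of the 5 genes with the smallest SD (y axis) in each of 71 libraries (points), ordered by strain and product and, within a group, by clone and culture (x axis). Each gene stays within a range of 0.83 to 1.04 log2 units, and the 5 genes lie at different levels between 6.52 and 9.72 on average.

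The highest chosen gene by mean, GQ67_00130, had an SD of 0.253. On log2(TPM + 1), its GS115 rhGH libraries lay at 10.35 to 10.60, above all libraries of Y-11430 rhGH (9.80 to 10.09), Y-48124 rhGH (9.79 to 10.17), and X-33 rhGH (10.01 to 10.27). With rhG-CSF the GS115 libraries lay at 9.95 to 10.71 and overlapped the other strains. With TMM scaling GS115 rhGH was no longer the highest, at 9.72 ± 0.09 (SD, n = 3 clones). It lay between 9.56 in Y-11430 rhGH and 9.82 and 9.83 in Y-48124 rhGH and X-33 rhGH. The lowest gene by mean, GQ67_05320, had overlapping group ranges, with group means from 4.84 ± 0.05 (SD, n = 3 clones) in Y-48124 rhGH to 5.23 ± 0.19 (SD, n = 3 clones) in Y-11430 rhGH.

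When the spread of the chosen genes was taken at 3 levels, cultures of the same clone differed with a median SD of 0.175, clone means within a group with 0.160, and the 8 group means with 0.127. For the other genes these were 0.278, 0.296, and 0.416. The SD between group means was therefore the smallest of the 3 in the chosen genes and the largest in the other genes. Clone means average cultures and group means average clones, so each SD still holds part of the spread below it. Averaging alone lowers the SD from cultures to groups, so the order in the chosen genes does not rank sources of spread. Group means spread less than clones in 72 of the 100 chosen genes and in 25.7% of the other genes. The SD between cultures was under 2 times the counting SD in 80 of the 100 chosen genes and in 53.9% of the other genes. These shares follow from the choice and are given as a description.

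The chosen genes moved together only weakly. The Pearson correlation between pairs of them over 71 libraries had a median of 0.14, with the central 90% of pairs between -0.21 and 0.45. These points share their library, and hence its depth and scaling. Measured against the mean of the other 99, 88 of the 100 genes had a smaller SD than before, with a median of 0.218. Among the identifiers, 1 pair was consecutive, so the chosen genes were not runs of neighbouring identifiers.

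The mean of the 100 genes was 6.92 to 7.32 in a library, a range of 0.398 log2 units, or 1.32-fold, with an SD of 0.0858. The median of all 2536 genes had an SD of 0.201. The 2 lowest libraries by the mean of the 100 genes were GS115 rhG-CSF 14B at 6.92 and Y-11430 rhG-CSF 16C at 6.95, and the highest was Y-11430 rhGH 25C at 7.32. In Y-11430 rhG-CSF 16C the transgenes took 6.89% of all TPM, and the value was 7.05 when TPM was scaled without the transgenes. Group values of this mean were between 7.04 ± 0.01 (SD, n = 3 clones) in Y-48124 rhGH and 7.18 ± 0.02 (SD, n = 3 clones) in GS115 rhGH, and the libraries of these 2 groups overlapped, at 6.97 to 7.09 and 7.05 to 7.26. Between 85 and 100 of the chosen genes lay within 0.5 of their own mean in any library, and the fewest were in GS115 rhG-CSF 14A and Y-11430 rhG-CSF 16C.

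The strain question, whether the chosen genes stayed level in GS115, had different answers on different scales. On log2(TPM + 1), the median difference of the 100 genes between GS115 and the other 3 strains was 0.03, from -0.25 to 0.41, with 44 lower and 56 higher in GS115. The other 2436 genes had a median difference of 0.37 on that scale. TMM scaling brought the other genes to 0.04 and the chosen genes to -0.31, from -0.59 to 0.07, with 96 of 100 lower in GS115. The scales differed by a shift of 0.34 for the chosen genes and 0.33 for the other genes, and on both the chosen genes lay below the other genes in GS115. GS115 gave 18 of the 71 libraries of the choice, so a small SD on log2(TPM + 1) keeps the GS115 difference near 0 there. The place of the chosen genes below the other genes follows from this and is given as a description.

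With TMM, the mean of the 100 genes was 7.05 to 7.29 in the 15 GS115 libraries without clone 14, below all 53 libraries of the other 3 strains at 7.38 to 7.64. The 3 libraries of GS115 rhG-CSF clone 14 were at 7.34 to 7.44 and overlapped them. The 100 highest genes, whose share of TPM moved with the strain, held 25.5% to 32.8% of TPM in the GS115 libraries without clone 14, 32.6% to 35.2% in clone 14, and 33.1% to 53.8% in the other strains. The median difference of these highest genes in GS115 was -0.49 on log2(TPM + 1). Their part in the shift between the scales was not tested.

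**Figure D3:**
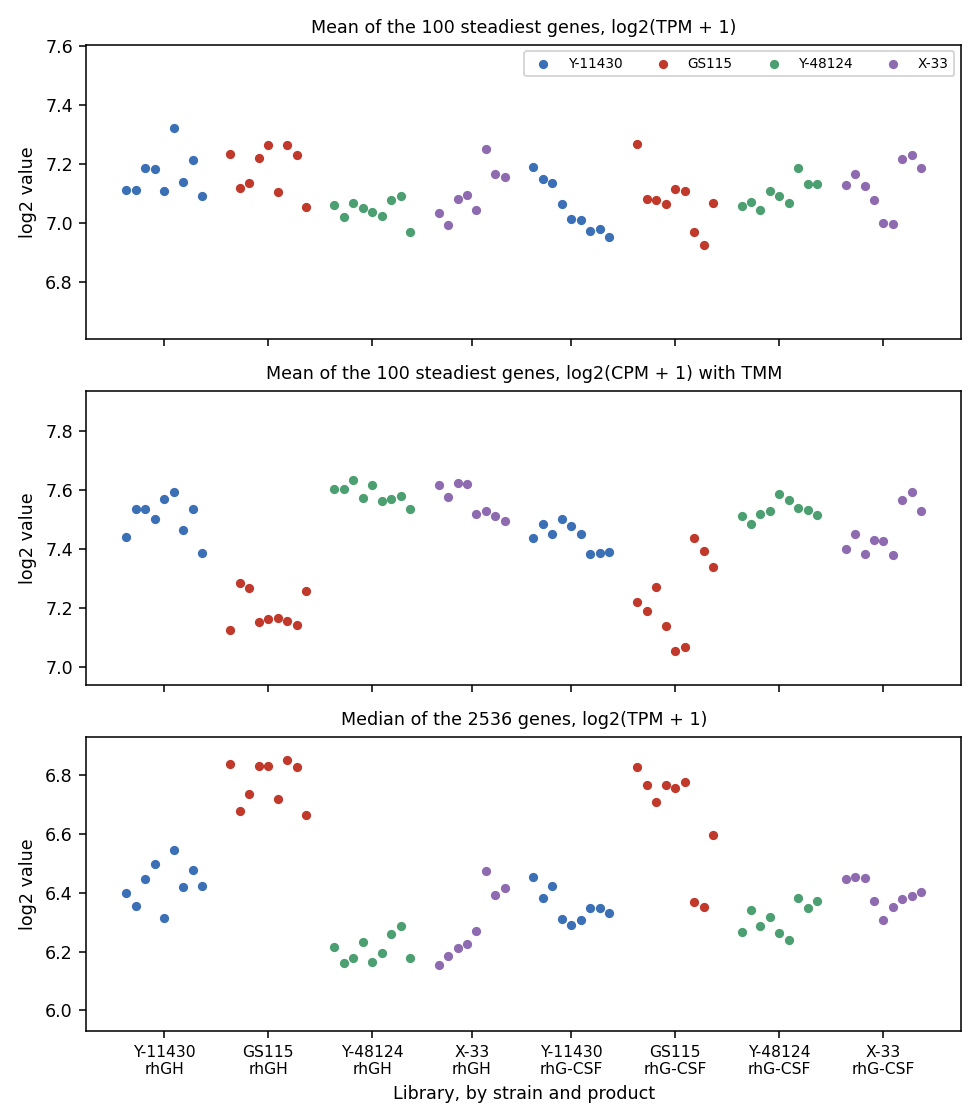
Mean of the 100 steadiest genes on log2(TPM + 1) (top), the same mean on log2(CPM + 1) with TMM (middle), and the median of the 2536 genes on log2(TPM + 1) (bottom), each point a library, coloured by strain and ordered by group, clone, and culture. Each panel spans 1 log2 unit. GS115 lies among the other strains in the top panel, and without clone 14 of rhG-CSF it lies below them in the middle panel (7.05 to 7.29) and above them in the bottom panel (6.66 to 6.85).

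Counts summed by clone were then compared on the TMM scale by the quasi-likelihood test of edgeR, with p adjusted by Benjamini-Hochberg over 5045 genes and a call at an adjusted p under 0.05. Any difference among the 8 groups was called in 50 of the 100 chosen genes, where the test called 66.0% of all genes. GS115 against the other 3 strains was called in 66 of the 100, where it called 71.5% of all genes, and all 66 were lower in GS115 with TMM scaling, whereas with the 100 genes themselves as the scaling reference 14 were higher and 14 lower, and limma on log2(TPM + 1) called 19 higher and 8 lower. The median log2 fold change of the 100 with TMM was -0.30, from -0.60 to 0.08, and the median over all genes was 0.07. With the 100 genes as the reference, the median over all genes was 0.37. The typical size of the change was smaller than elsewhere, with a median absolute log2 fold change of 0.30 against 0.61 over all genes, and 15 of the 100 exceeded 0.5 against 57.7% of all genes. Without GS115 rhG-CSF clone 14, 79 of the 100 were called against 70.7% of all genes, and without GS115 rhG-CSF clone 13, 60 were against 70.99%. DESeq2 called 81 against 71.6%, so whether the count lay below or above the share of all genes changed with the setting. The choice used the spread over these same libraries, so nothing is read from these counts beyond their sizes.

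**Figure D4:**
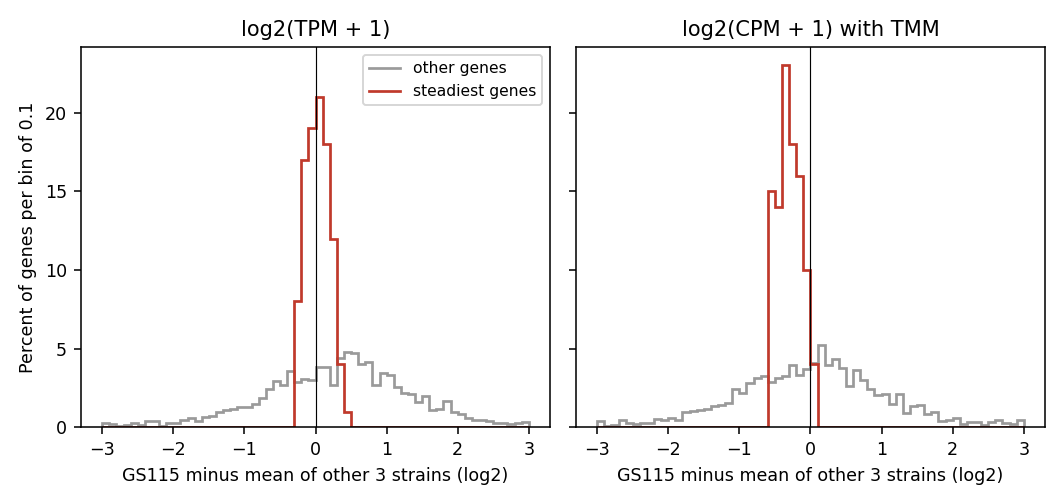
Difference between GS115 and the mean of the other 3 strains (x axis, log2) for the 100 steadiest genes (red) and the other 2436 genes (grey), as the percent of genes in bins of 0.1 (y axis), on log2(TPM + 1) (left) and log2(CPM + 1) with TMM (right). The red medians are 0.03 and -0.31 and the grey medians 0.37 and 0.04. Genes beyond 3 in either direction (82 on the left, 69 on the right) are not drawn.

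The 2 chosen genes called lower with the smallest adjusted p were GQ67_01438 and GQ67_03334, both in GS115. For GQ67_01438, the lowest, median, and highest rhGH libraries on log2(TPM + 1) were at 6.35, 6.57, and 6.92 in GS115, at 6.09, 6.29, and 6.72 in Y-11430, at 6.47, 6.57, and 6.93 in Y-48124, and at 6.37, 6.91, and 7.02 in X-33. The rhG-CSF libraries were at 5.98, 6.26, and 6.82 in GS115, at 6.17, 6.45, and 6.63 in Y-11430, at 6.56, 6.72, and 6.85 in Y-48124, and at 6.32, 6.73, and 6.89 in X-33. On this scale the GS115 libraries overlapped those of every other strain, and Y-11430 was the lowest strain with rhGH.

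With TMM, the clone means of GQ67_01438 were 6.18 ± 0.19 in GS115 rhGH and 6.003 ± 0.06 in GS115 rhG-CSF, against 6.28 ± 0.04 to 6.84 ± 0.08 in the other groups (SD, n = 3 clones). Its fitted change in GS115 was -0.54 on the log2 scale (standard error 0.08, edgeR adjusted p = 1.75e-06). The gene was also called lower in Y-11430 than in the pair X-33 and Y-48124, at -0.36 on the log2 scale (standard error 0.08, edgeR adjusted p = 0.0098). For GQ67_03334 the fitted change in GS115 was -0.52 on the log2 scale (standard error 0.07, edgeR adjusted p = 2.02e-06). Its clone means with TMM were 6.83 ± 0.08 and 6.94 ± 0.05 in GS115 with rhGH and rhG-CSF, and 7.23 ± 0.11 to 7.54 ± 0.09 in the other groups (SD, n = 3 clones). On log2(TPM + 1) its GS115 libraries, at 6.72 to 7.35, lay inside the span of the other strains, at 6.69 to 7.65. The difference between GS115 and the other 3 strains on log2(TPM + 1) was -0.16 for GQ67_01438 and -0.17 for GQ67_03334, in the same direction as with TMM and smaller, and limma on that scale called neither (adjusted p = 0.067 and 0.057). The 3 calls of these genes held with each clone left out.

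Outside GS115, few of the chosen genes were called with edgeR. The choice used the spread over these same libraries, so these counts for strain and product are also given as a description. For Y-11430 against the pair X-33 and Y-48124, DESeq2 called 7 of the 100 and 9.75% of all genes. With edgeR this comparison gave 2 of the 100, both lower in Y-11430, where 6.86% of all genes were called. The absolute log2 fold change of the 100 had a median of 0.09 and a maximum of 0.36. Y-48124 against X-33 gave 0 of the 100 and 0% of all genes with edgeR, and DESeq2 and limma also gave 0. At an unadjusted p under 0.05 with edgeR there were 0 of the 100 and 2.70% of all genes. The largest absolute difference of the 100 between these 2 strains was 0.18.

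The product was called in 2 of the 100, where 10.5% of all genes were called for rhG-CSF against rhGH. With TMM 1 was higher and 1 lower with rhG-CSF, and with the 100 genes as the scaling reference 2 were higher and 0 lower. GQ67_04221 was the chosen gene called higher with rhG-CSF, at 0.22 on the log2 scale (standard error 0.07, edgeR adjusted p = 0.034). On log2(TPM + 1), its rhGH libraries were at 6.66 to 7.23 in Y-11430, 7.03 to 7.37 in GS115, 6.58 to 7.10 in Y-48124, and 6.55 to 7.21 in X-33. Its rhG-CSF libraries were at 7.09 to 7.44, 6.94 to 7.32, 7.05 to 7.29, and 6.86 to 7.43 in the same strains. The products overlapped in each strain. In GS115 the median library was lower with rhG-CSF (7.14) than with rhGH (7.27), while in the other strains it was higher with rhG-CSF. With TMM its clone means in GS115 were 6.99 ± 0.13 with rhGH and 7.06 ± 0.13 with rhG-CSF (SD, n = 3 clones). The call was lost in 12 of the 24 fits with a clone left out, where the adjusted p was 0.029 to 0.081 and the fold change 0.19 to 0.24. Without GS115 rhG-CSF clone 14, 11 of the 100 were called for the product, 1 higher and 10 lower, where 15.0% of all genes were. Without Y-11430 rhG-CSF clone 13, 5 were, against 14.8% of all genes.

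Whether the GS115 difference itself differed between the products was called in 0 of the 100 and 0% of all genes with edgeR, while 12 of the 100 had an unadjusted p under 0.05, as did 9.26% of all genes, and DESeq2 called 2 and 0.548% of all genes. For the Y-11430 difference, edgeR called 0 of the 100, where 0.872% of all genes were called, with 7 of the 100 and 12.7% of all genes at an unadjusted p under 0.05, and DESeq2, which called 2.17% of all genes, and limma also called 0 of the 100. Of the 100 chosen genes, 32 were called in none of the 4 comparisons of strain or product, against 25.1% of all genes.

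Libraries that a choice did not use took no part in the SDs behind it, but they can be close to libraries that did. In library X-33 rhGH 12A, all 100 genes lay within the range of the other 71 libraries, as did 98.9% of the other genes, whose ranges are wider. Its distance from the mean had a median of 0.14 for the chosen genes and 0.32 for the other genes. Cultures 12B and 12C of its labelled clone were in the choice. So were the Y-11430 rhGH libraries, to whose mean it lay nearer than to that of its labelled group. The smaller distance of the chosen genes is therefore a description and not an independent check. The farthest was GQ67_01822 at 7.39, named after its value was seen, at a distance of 0.59.

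When the same rule was run on the 35 rhGH libraries alone, it took a list of 100 genes of which 59 were among the 100 described here, and run on the 36 rhG-CSF libraries alone it took 65 of them. The 2 lists shared 36 genes, 36% of each. The rhGH list had a median SD of 0.214 in its own libraries and of 0.261 in the rhG-CSF libraries, where all eligible genes had a median of 0.507. The rhG-CSF list had a median SD of 0.209 in its own libraries and of 0.264 in the rhGH libraries, where the median of all was 0.520. Of the rhGH list, 81 genes were among the steadiest 25% of eligible genes in the other product, and of the rhG-CSF list, 91 were. Steadiness in these strains thus carried over from either product to the other for most genes, with larger SDs.

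The steadiest rhGH gene had an SD of 0.115 in rhGH libraries and of 0.261 in rhG-CSF libraries, and the steadiest rhG-CSF gene had 0.128 and 0.236. The mean of the 3 steadiest genes of a product had an SD in the other product of 0.167 when chosen with rhGH and 0.136 when chosen with rhG-CSF, the mean of 10 genes had 0.199 and 0.145, and the mean of 100 genes had 0.147 and 0.113. The median of all eligible genes had an SD of 0.166 in the rhG-CSF libraries and 0.234 in the rhGH libraries. Of the means chosen with rhGH, that of 3 genes was close to this value, that of 10 was above it, and that of 5, at 0.158, was below it. A mean of 3 genes was thus less variable in the other product than the single steadiest gene for both choices. With TMM the SDs in the other product were 0.225 and 0.155 for 3 genes chosen with rhGH and with rhG-CSF, and 0.191 and 0.158 for 100 genes. GQ67_02745 from the rhGH list and GQ67_03867 from the rhG-CSF list, named after their values were seen, were the widest in the other product, with SDs of 0.531 and 0.504.

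The choice was also repeated without each strain and read in the strain left out. Without X-33, Y-48124, and Y-11430, the lists shared 91, 83, and 71 genes with the 100 described here, and in the strain left out 0, 0, and 2 of their genes differed from the mean of the other 3 strains by more than 0.5 on log2(TPM + 1), against 27.2%, 33.2%, and 12.8% of the other genes. Between X-33 and Y-48124 edgeR called 0 of 5045 genes, so a choice without either kept a close strain. The values of 0 in this pair are therefore not readings in an unlike strain. Without GS115 the list shared 51 genes, and 40 of its 100 genes differed in GS115 by more than 0.5, against 61.6% of the other genes. These differences were -0.69 to 2.76 with a median of 0.16, and 66 genes were higher in GS115. With TMM 43 of the 100 exceeded 0.5, and without GS115 rhG-CSF clone 14, 38 did on log2(TPM + 1). The share of the other genes was not taken for these counts. In the edgeR fit with TMM, 57.7% of all genes exceeded 0.5 in GS115. Genes steady in the other 3 strains were therefore often not level in GS115, on either scale, while their SD within the GS115 libraries, with a median of 0.228, was below the 0.359 of the other genes.

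**Figure D5:**
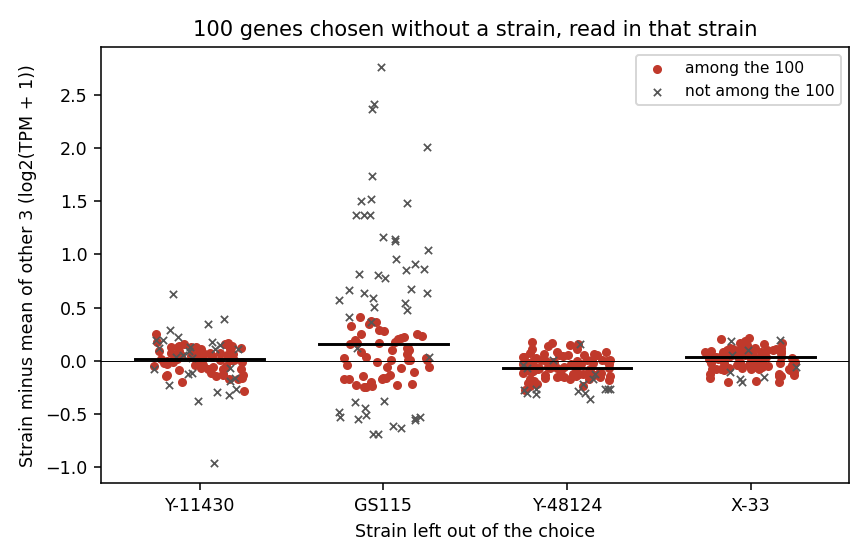
Difference between a strain and the mean of the other 3 strains (y axis, log2(TPM + 1)) for the 100 genes chosen without that strain (points), by the strain left out (x axis), with the median as a bar. Circles are genes that are among the 100 chosen on all strains, and crosses are not. In GS115 the points reach from -0.69 to 2.76, and in X-33 they stay between -0.20 and 0.22.

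The 100 genes were also used as the scale for the transgenes, which took no part in the choice. The clones differ in transgene copy number by selection, which is part of the spread given for each strain. On log2(TPM + 1) minus the mean of the 100 genes, the rhGH transgene was at 5.77 ± 0.06 (SD, n = 3 clones) in Y-11430, at 5.75 ± 0.38 (SD, n = 3 clones) in GS115, and at 3.80 ± 0.62 (SD, n = 6 clones) in X-33 with Y-48124. The clones of Y-11430, at 5.71 to 5.83, and of GS115, at 5.44 to 6.17, lay above all 6 clones of Y-48124 and X-33, at 2.70 to 4.37. The differences were 1.97 and 1.95, against 2.06 and 2.06 as deposited, each with a two-sided exact permutation p of 0.0238, the smallest that 3 against 6 clones can give, and an adjusted p of 0.0476 over 4 comparisons. Against the median of the 2536 genes in place of the 100 genes, the GS115 difference was 1.53 and the Y-11430 difference 1.87.

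The rhG-CSF transgene relative to the 100 genes was at 7.09 ± 1.81 (SD, n = 3 clones) in Y-11430, at 4.74 ± 1.90 (SD, n = 3 clones) in GS115, and at 4.37 ± 1.60 (SD, n = 6 clones) in X-33 with Y-48124. The Y-11430 clones, at 5.64 to 9.12, overlapped the 6 clones, at 2.02 to 6.46, and the difference of 2.72 did not pass the two-sided exact permutation test (p = 0.0952, adjusted p = 0.127). The GS115 difference of 0.37 did not pass it either (exact permutation p = 0.762, adjusted p = 0.762). This difference was -0.60 without GS115 rhG-CSF clone 13 and 1.31 without GS115 rhG-CSF clone 14. With all clones kept, the scale of the 100 genes moved the 4 transgene differences by at most 0.11 from the deposited values. The 100 genes were chosen to be level on those same values, so a small shift follows from the choice. It is no check of the deposited differences.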

How the data were processed

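RNA was measured by 3′ digital gene expression (3′ DGE), which reads the 3′ end of messenger RNA, in 72 libraries. The authors quantified reads with Salmon 0.9.1 on 1 transcript per gene with a 100-nt extension, with the transgenes added, and deposited unnormalized whole-number counts for every gene. The processing notes also name bedtools 2.26.0, and merging of reads by molecular identifier is not given in the sources used here. The authors also deposited log2(TPM + 1) for the same genes. The genome build is not given in the sources used here.

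The 100 genes and the rules for naming genes were chosen with earlier results of these data known. Named genes were the 5 smallest SDs, the highest and lowest means, the 2 genes on either side of the limit, and up to 2 called genes in each direction; others are stated as named after their values were seen. Counts of the cultures of a clone were summed, and the 24 clones in 8 groups entered 1 fit of edgeR 4.0.16 (R 4.3.3) with TMM, filterByExpr, and Benjamini-Hochberg adjustment. On simulated counts for GS115 against the other strains, 99 of 99 genes changed by a log2 fold of 1, 32 of 100 changed by 0.5, and 4 of 4832 unchanged genes were called. The simulation changed only 200 genes, equally up and down, with a common dispersion. In the data this comparison called 71.5% of genes, so the simulation gives no error rate for it. The counting SD was computed from the counts and covers counting error only. Transgenes were compared by exact permutation over clone means (SciPy 1.17.1). Alternatives were DESeq2 1.42.0, limma 3.58.1, other scalings, filters, and units, and each clone left out. Choices without a strain, means of several genes, and 3 further scales for the transgenes were added after seeing the data. Nothing states that clones were grown on separate days, so p-values measure the spread between these clones. Tables and plots were made with pandas 2.3.3, NumPy 2.4.6, and Matplotlib 3.10.9 in Python 3.11.15.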

Additional observations from a re-analysis of the deposited data

Results flagged for a closer look

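Within each group of 8 or 9 libraries, the lowest and highest library were compared with the rest by Dixon's ratio for total counts, the mean of the 100 genes, and the 14 named genes. Of 128 groups examined, 8 held a library far from the others, where chance gives about 1 in 20 (6.4) for independent libraries. The libraries of a group include repeat cultures of a clone, so this rate is only a rough guide here. GS115 rhG-CSF 14A had 33003281 counts, against 1423848 to 5996828 in the other libraries of its group. GQ67_00276 was at 6.09 in Y-48124 rhG-CSF 13A (others 6.35 to 6.57). GQ67_00130 was at 10.27 in X-33 rhGH 14A (others 10.01 to 10.12). GQ67_05320 was at 4.53 in GS115 rhGH 14C (others 5.005 to 5.35). GQ67_04042 was at 6.28 in X-33 rhGH 14A (others 5.40 to 5.73) and at 5.24 in X-33 rhG-CSF 12B (others 5.61 to 5.89). GQ67_01438 was at 6.82 in GS115 rhG-CSF 13B (others 5.98 to 6.34), and GQ67_03334 was at 6.69 in X-33 rhGH 13A (others 7.20 to 7.65). The values are log2(TPM + 1). The mean of the 100 genes had no such library in any group.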

How the results depend on the processing

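Repeating the choice kept 38 of the 100 genes with TMM, 36 with libraries centred on the median of eligible genes, 51 without GS115, 59 and 65 with rhGH or rhG-CSF alone, 35 by the SD of cultures around their clone mean, and 37 by edgeR dispersion. It kept 86 to 98 with each clone left out and 67 to 98 under the other alternatives run. Calls among the 100 (in parentheses among all genes) with the genes themselves as reference were 28 in GS115 (74.5%), 1 in Y-11430 (9.97%), and 9 for any difference (68.8%). With limma they were 27 (73.3%), 1 (6.28%), and 9 (68.9%), and 1 for the product (7.33%). DESeq2 called 81 in GS115 (71.6%), 7 in Y-11430 (9.75%), 6 for the product (14.0%), and 2 for the GS115 difference between products (0.548%), its size factors in edgeR gave 77 in GS115 (71.6%), and with shrinkage it gave no value for any difference. With cultures as replicates, calls were 19 in Y-11430 (29.0%), 21 for the product (31.9%), 9 (6.91%) and 9 (13.0%) for the 2 differences between products, and 86 for any difference (85.5%). With the culture letter as a replicate block they were 18 (29.0%), 20 (32.0%), 9 (6.87%), 8 (12.8%), and 85 (85.4%), and 84 in GS115 as without it. Deviations of libraries sharing a letter had a median correlation of 0.0027, against -0.0018 for different letters, both between different clones. A median over all clones cannot show a pairing within some groups. Whether the letters mark a shared day or batch is not given in the sources used here. With each clone left out, calls were 60 to 79 in GS115, 1 to 4 in Y-11430, 1 to 11 for the product, and 35 to 61 for any difference, and 0 in the other 3 comparisons. The transgene differences in rhGH were 1.74 to 2.08 in Y-11430 and 1.72 to 2.10 in GS115, and 2 clones against 6 cannot give an exact permutation p under 0.0714. In rhG-CSF they were 1.70 to 3.44 in Y-11430 and -0.60 to 1.31 in GS115, where the sign reversed without GS115 clone 13 (-0.60) and without Y-48124 clone 14 (-0.10). The genes chosen without GS115 that exceeded 0.5 in it were 38 to 42 with each GS115 clone left out. The causes of these changes were not tested. A library with 386665 counts limits genes near a mean of 5.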
